A study of Mus musculus with 1049 samples.

Results

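The genes described here encode 10 proteins that remove reactive oxygen species or bind metals: the glutathione peroxidases Gpx1, Gpx3 and Gpx4, the superoxide dismutases Sod1, Sod2 and Sod3, catalase (Cat), peroxiredoxin 1 (Prdx1) and the metallothioneins Mt1 and Mt2. They were chosen by name, with earlier results of these data known. All 10 were found among the 51777 genes of the count tables, and all 10 were among the 16684 genes tested between ages. Superoxide dismutases turn superoxide into hydrogen peroxide, which catalase, glutathione peroxidases and peroxiredoxins then reduce. Metallothioneins are small cysteine-rich proteins that hold zinc and copper, and their genes are switched on by metal ions, by glucocorticoids and by oxidative stress. In the dermis, fibroblasts build and keep the collagen matrix, and Gpx3 and Sod3 act outside the cell, in that matrix and in plasma.

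Dermal fibroblasts of C57Bl/6 mice were taken at 3 ages: newborn (1.5 or 2.5 days), young (2 months) and old (18 months). Cells were released from skin with collagenase, sorted after staining for lineage surface markers, CD34 and Pdgfra, and sequenced with Smart-seq2, which copies polyadenylated RNA along its length and adds no molecular identifiers. The labels do not say which newborn cells had which age in days or which staining. The part of the staining in the age differences was not tested. Each of 2 experiments, named as such in the labels, held all 3 ages, and the labels name no mice, so the number of animals behind a value is not known. The labels name no transgene and no treatment, and give the newborn mice as female littermates. Of 861 wells, 735 were kept: 91 and 158 newborn cells in experiments 2 and 1, 104 and 142 young cells, and 114 and 126 old cells. Experiment 2 used 4 plates and experiment 1 used 5, with all 3 ages sorted onto every one of these 9 plates.

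For each age in each experiment the reads of all kept cells were pooled into 1 sum, so 6 sums (119682449 to 195324769 reads) stand behind the levels, with n = 2 at each age. Levels are counts scaled to library size (CPM, counts per 1e6 reads times a library factor for each sum). The p-values come from edgeR's quasi-likelihood test over all genes with Benjamini-Hochberg adjustment at 0.05, and they measure only the spread between the 2 experiments of an age. Fibroblast markers summed to 43185 to 52953 CPM in newborn sums. They summed to 162436 to 164172 CPM in young sums and 132609 to 140366 CPM in old sums. None of the 6 markers was at 0. Dcn gave most of the adult values, with a mean of 15638 CPM (newborn) against 108226 (young) and 111716 (old). Col1a1 was lowest in old cells, at a mean of 2119 CPM against 9566 (newborn) and 15533 (young). Col1a2 was too, at 4764 CPM against 10107 (newborn) and 20964 (young). Lum and Pdgfrb were higher in every adult sum than in both newborn sums. Pdgfra had its highest mean at the newborn age (259 CPM), with overlapping sums. Immune markers summed to at most 1.48 CPM in newborn sums, 177 CPM in young sums and 25.4 CPM in old sums. Csf1r gave 36.7 and 160 CPM of the young values in experiments 2 and 1. Ptprc and Laptm5 were at 0 in all sums, and Cd52 and Lyz2 at most at 1.00 CPM. Adipocyte markers summed to at most 2.55 CPM in any sum, with 3 of 4 adipocyte genes at 0 in all cells. Endothelial markers summed to 5.65 to 26.5 CPM in newborn sums, 44.5 to 82.0 CPM in young sums and 65.9 to 74.3 CPM in old sums. Plvap gave most of the adult values (39.7 to 76.7 CPM in young and 49.5 to 67.4 CPM in old sums), and Cdh5 was at 0 in all sums. Keratinocyte markers summed to 18.9 to 33.7 CPM in newborn sums, 43.6 to 47.3 CPM in young sums and 57.1 to 70.9 CPM in old sums. Of these, Krt10 alone gave 15.8 to 22.4 CPM in newborn, 43.6 to 47.3 CPM in young and 57.1 to 59.9 CPM in old sums. Krt5, Krt1 and Epcam were at 0 in all adult sums, and Krt14 was at 11.1 CPM in the old sum of experiment 1 and at 0 in the other adult sums. Mural and muscle markers summed to 14.7 to 97.6 CPM, 4.70 to 11.4 CPM and 4.62 to 15.9 CPM at the same ages. Melanocyte markers stayed at or under 8.28 CPM, and mast, Schwann and erythroid markers at or under 1.09 CPM. The part of these marker levels in the results below was not tested. When every cell was thinned to 100000 reads, the genes detected per cell had medians of 2226 and 1799 in newborn cells of experiments 2 and 1, 2043 and 1648 in young cells, and 1700.5 and 1503.5 in old cells.

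Gpx3, Mt1 and Mt2 carried the age differences that passed the test, so the sequence around their RefSeq transcription start is shown first. The 3 windows run from 250 bases before to 50 bases after the start given by RefSeq (GRCm38.p6) and lie on the plus strand, Gpx3 at chr11:54902604-54902903, Mt1 at chr8:94178839-94179138 and Mt2 at chr8:94172368-94172667. The Gpx3 window lies inside the gene span of the GENCODE annotation, which starts further upstream at 54902453, so the sequence before that start is not covered. Capitals mark the core of the metal response element, TGCACNC or TGCGCNC on either strand, which binds the zinc-sensing factor MTF-1.
Gpx3: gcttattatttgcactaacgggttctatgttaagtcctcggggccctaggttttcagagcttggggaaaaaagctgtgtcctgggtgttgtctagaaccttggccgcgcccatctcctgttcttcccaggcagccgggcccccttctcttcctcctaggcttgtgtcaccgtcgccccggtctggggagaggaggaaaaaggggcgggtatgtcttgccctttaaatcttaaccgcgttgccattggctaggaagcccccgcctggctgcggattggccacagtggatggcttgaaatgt
Mt1: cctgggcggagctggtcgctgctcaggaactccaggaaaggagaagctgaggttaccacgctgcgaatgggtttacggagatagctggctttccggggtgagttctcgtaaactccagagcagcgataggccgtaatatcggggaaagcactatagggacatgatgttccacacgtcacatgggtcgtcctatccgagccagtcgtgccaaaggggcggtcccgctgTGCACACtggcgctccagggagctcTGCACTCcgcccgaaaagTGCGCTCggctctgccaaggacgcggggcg
Mt2: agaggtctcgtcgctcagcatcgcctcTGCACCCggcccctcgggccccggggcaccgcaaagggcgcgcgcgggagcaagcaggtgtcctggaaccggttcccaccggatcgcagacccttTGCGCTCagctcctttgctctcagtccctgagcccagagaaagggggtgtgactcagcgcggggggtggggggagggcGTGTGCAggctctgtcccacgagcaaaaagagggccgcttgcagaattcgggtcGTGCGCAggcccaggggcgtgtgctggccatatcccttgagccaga
The Mt1 window held 3 cores and the Mt2 window 4, and the windows of Gpx1, Gpx3, Gpx4, Sod1, Sod2, Cat and Prdx1 held 0. Of 32851 promoter windows of the same length, 25.7% held at least 1 core, 1.97% at least 3 and 0.518% at least 4. The core of the antioxidant response element, TGACNNNGC on either strand, was present once each in the windows of Sod1, Prdx1 and Mt2 and in 12.4% of all windows. Such a match describes the letters and is no evidence of binding. RefSeq windows were matched for 9 of the 10 genes, with 4 for Gpx4.

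Across the ages, Gpx3, Mt1 and Mt2 were higher in adult than in newborn cells, and Sod3 was read in few newborn cells and in many adult cells. Neither Sod3 nor any gene for an intracellular enzyme passed the edgeR test. In young against newborn sums 3 of the 10 genes rose (Gpx3, Mt1 and Mt2) and 0 fell, against 0.719% of all genes tested that rose and 0.0599% that fell. In old against newborn sums the same 3 genes rose and 0 fell, against 0.797% and 0.138% of all genes. In old against young sums 0 rose and 0 fell, as for all genes (0% and 0%). The median log2 fold change of the 10 genes was 0.54 in young against newborn, 0.65 in old against newborn and -0.03 in old against young sums. Over all genes tested the medians were -0.07, -0.08 and 0. The adult comparisons with newborn share the newborn sums. Since the 10 genes were chosen with earlier results of these data known, their counts beside the shares of all genes are a description only.

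**Figure D1:**
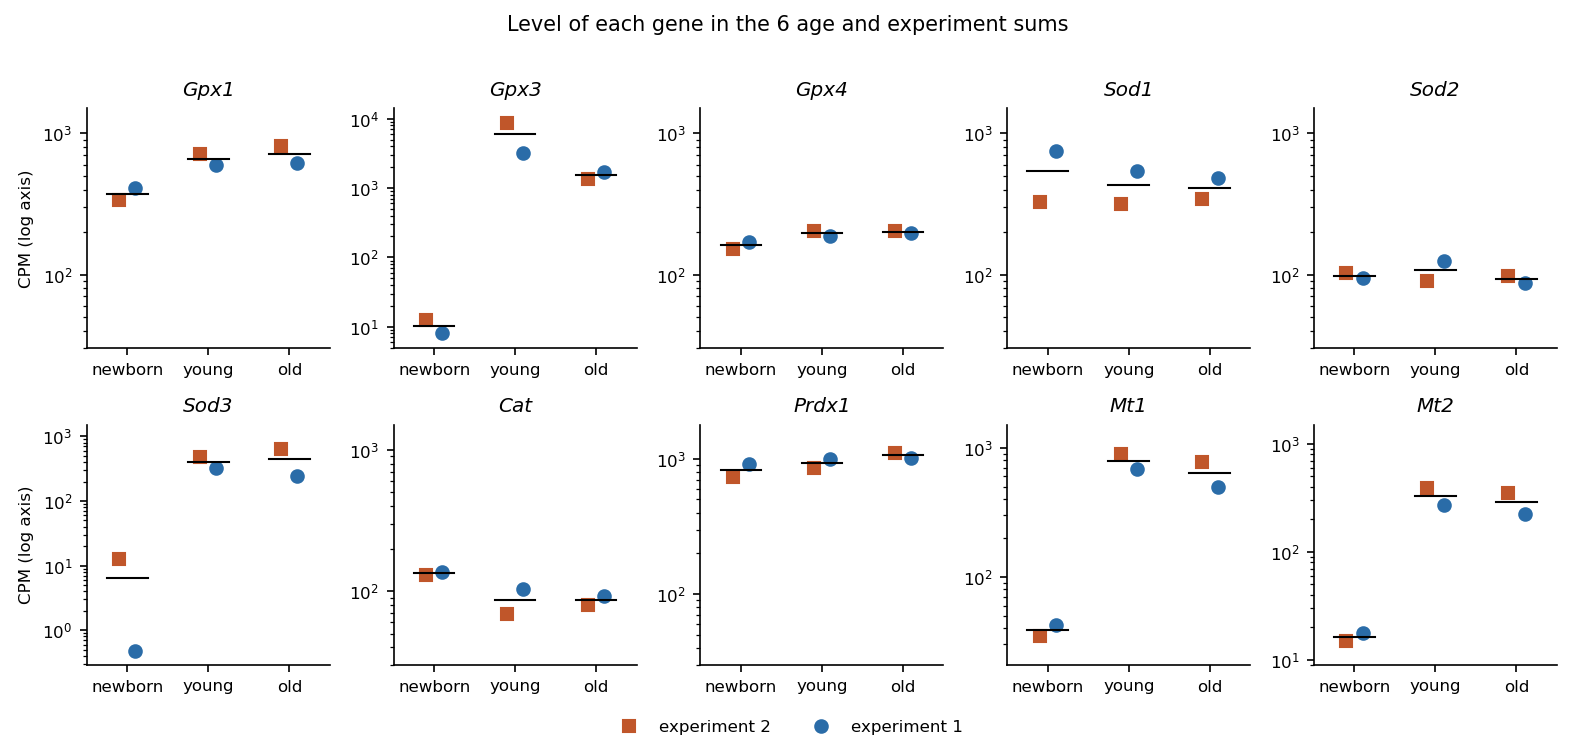
Level of each gene in CPM (log axis, with its own range in each panel) in newborn, young and old sums. Squares are experiment 2, circles experiment 1 and bars the mean of the 2 sums. Gpx3, Sod3, Mt1 and Mt2 are higher in all 4 adult sums than in the newborn sums, and Gpx4 stays between 151 and 205 CPM.

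**Figure D2:**
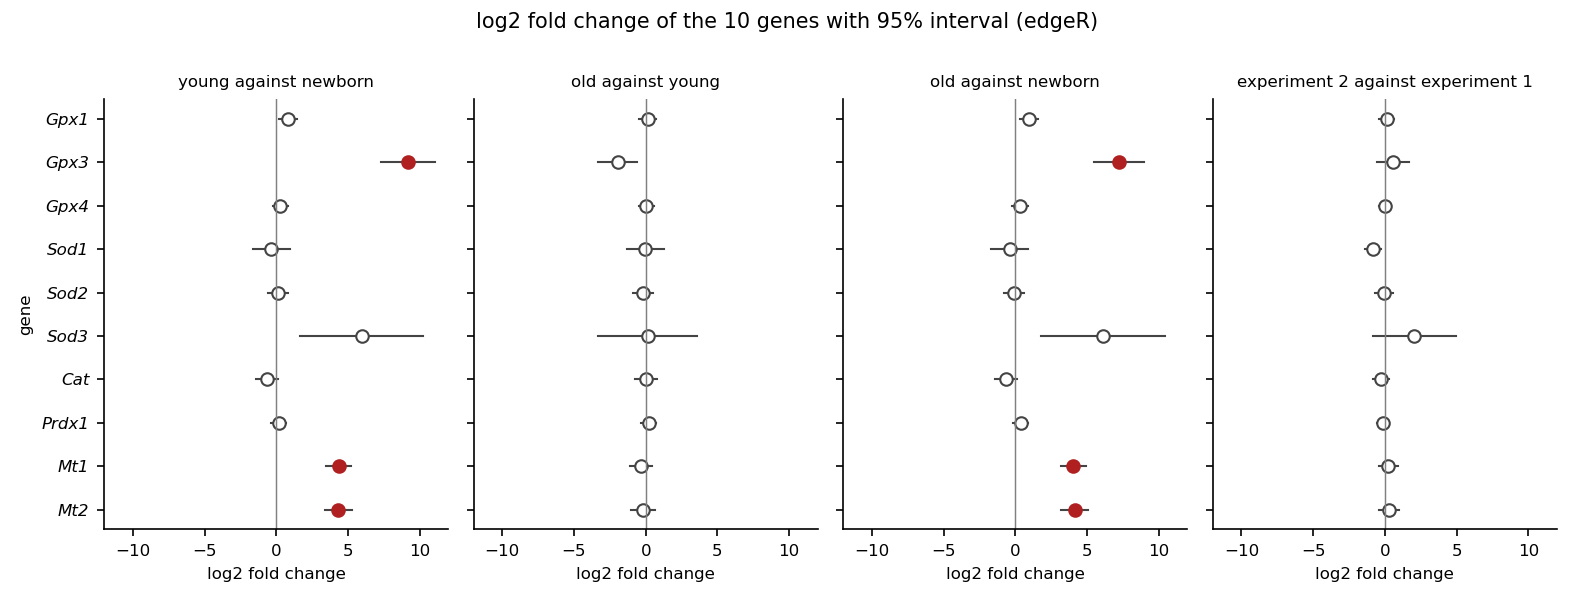
The log2 fold change of the 10 genes in each comparison, with its 95% interval from edgeR. Filled red points passed an adjusted p of 0.05: Gpx3, Mt1 and Mt2 in young against newborn and in old against newborn sums, and no gene in the other 2 comparisons.

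Gpx3 (ENSMUSG00000018339, chr11:54902453-54910377, GRCm38) encodes the glutathione peroxidase secreted into plasma and extracellular fluid. It had 12.3 and 8.10 CPM in newborn sums of experiments 2 and 1, 8757 and 3190 CPM in young sums, and 1366 and 1694 CPM in old sums. All adult sums lay above the newborn sums, the young sums lay above the old sums, and the 2 young sums lay far apart. Against newborn sums the log2 fold change was 9.19 ± 0.74 in young (SE, adjusted p = 0.0209 by edgeR's quasi-likelihood test) and 7.23 ± 0.68 in old sums (adjusted p = 0.0274). With the experiment as a block in the edgeR fit the adjusted p was 0.0550 for young against newborn and 0.0664 for old against newborn, so both calls were lost. Without any 1 of the 6 sums in turn, the edgeR adjusted p for young against newborn lay between 0.0726 and 0.123. For old against newborn it lay between 0.0485 and 0.156, with the call kept in 1 of 6 such fits, the fit without the young sum of experiment 2.

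Between the adult ages Gpx3 averaged 1530.3 ± 232 CPM in old sums and 5974 ± 3936 CPM in young sums (SD, n = 2 each). The log2 fold change was -1.96 ± 0.54 (SE, 95% interval -3.34 to -0.59), with an unadjusted p of 0.0144 and an adjusted p of 0.906 by edgeR. Gpx3 was the 1 gene of the 10 with an unadjusted p under 0.05, and 4.86% of all genes tested had one. By DESeq2 it was also the 1 gene of the 10 called, at a log2 fold change of -1.98 and an adjusted p of 0.00629, where 7.13% of all genes with an adjusted p were called, and limma on cell means called 0 of the 10. Gpx3 was 6.41-fold lower in the old than in the young sum of experiment 2, and 1.88-fold lower in experiment 1. Plate by plate, with reads added per plate and age, Gpx3 was lower in old than in young cells on 9 of 9 plates. It was the 1 gene of the 10 with that order on all plates, and 0.48% of all genes tested had it.

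Gpx3 reads were concentrated in part of the cells. After thinning, the share of cells with a Gpx3 read was 4.40% in newborn cells of experiment 2 and 3.797% in those of experiment 1. It was 68.3% and 52.8% in young cells and 38.6% and 31.7% in old cells. Without thinning the shares were 19.8% and 6.33% in newborn cells, 76.0% and 53.5% in young cells, and 47.4% and 33.3% in old cells. Newborn cells of experiment 2 differed most between these counts, and 15.4% of them held Gpx3 at under 100 CPM.

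At the upper end, 30.8% and 11.3% of young cells in experiments 2 and 1 held at least 10000 CPM of Gpx3 (32 and 16 cells). In old cells the shares were 1.75% and 6.35% (2 and 8 cells), and the highest newborn cell held 606 CPM. The median young cell held 3032 CPM in experiment 2 and 397 CPM in experiment 1, and the median old cell held 0 in both experiments. The tenth of cells with the most Gpx3 held 47.6% and 52.1% of its reads in young cells, and 72.4% and 83.0% in old cells. Old cells of experiment 2 thus had the lowest share of very high cells among adult sums, and young cells of experiment 2 the highest.

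**Figure D3:**
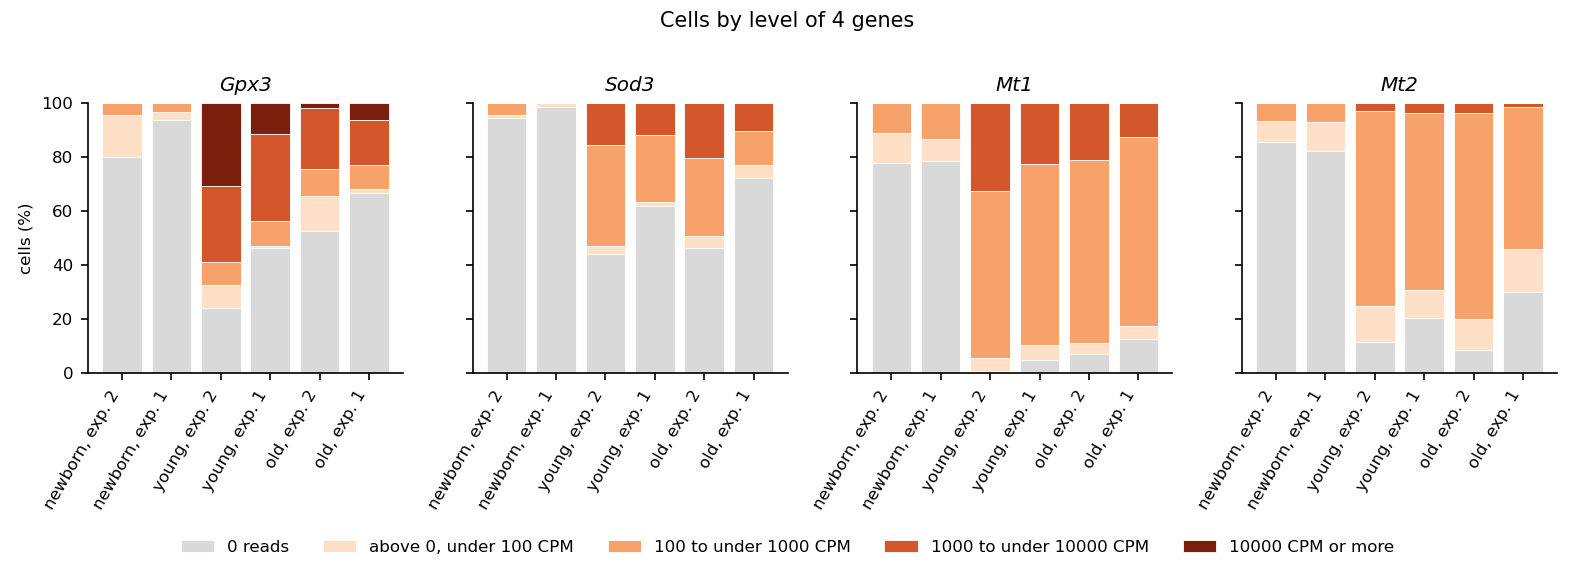
Share of cells in 5 classes of level for Gpx3, Sod3, Mt1 and Mt2, for each age with experiment 2 left of experiment 1. Each bar adds up to all kept cells of its sum. The darkest class, at least 10000 CPM, appears for Gpx3 alone and takes 30.8% of young cells of experiment 2.

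The genes whose level across single cells followed Gpx3 most closely were Ogn, Serpinf1, Ifi205, Dpep1 and Pltp. Spearman correlations were taken within each of the 4 adult sums (486 cells, 1865 genes compared) and averaged with equal weight. Ogn, which encodes the matrix proteoglycan osteoglycin, had a mean of 0.47 (0.37 to 0.57 over the 4 sums). Serpinf1, encoding pigment epithelium-derived factor, had 0.39, and Pltp, encoding phospholipid transfer protein, had 0.36. Cells of a sum share their experiment and differ in depth, and the values are a description. Pltp overlaps Ctsa on the opposite strand and Dpep1 lies inside the annotated span of Gm20388, so part of their reads may belong to those genes.

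Mt1 (ENSMUSG00000031765, chr8:94179082-94180327) encodes metallothionein 1. It had 34.7 and 42.6 CPM in newborn sums of experiments 2 and 1, 889 and 682 CPM in young sums, and 771 and 498 CPM in old sums. Mt2 (ENSMUSG00000031762, chr8:94172664-94173568), its neighbour upstream, encodes metallothionein 2. It had 14.9 and 17.9 CPM in newborn sums, 387 and 273 CPM in young sums, and 350 and 226 CPM in old sums. For each gene all adult sums lay above all newborn sums, and old and young sums overlapped.

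Young against newborn, the log2 fold change was 4.34 ± 0.35 for Mt1 (SE, edgeR adjusted p = 0.0205) and 4.33 ± 0.37 for Mt2 (adjusted p = 0.0243), about 20.3-fold and 20.1-fold. Old against newborn, it was 4.04 ± 0.34 for Mt1 (edgeR adjusted p = 0.0211) and 4.13 ± 0.37 for Mt2 (adjusted p = 0.0237). With the experiment as a block the edgeR adjusted p was 0.0589 for Mt1 and 0.0656 for Mt2 in young against newborn, and 0.0646 and 0.0662 in old against newborn sums, so these calls were lost too. Leaving out any 1 sum ended each of the 4 calls, with edgeR adjusted p from 0.0764 to 0.150. The fold changes then stayed between 3.69 and 4.56 on the log2 scale. Old against young, the log2 difference was -0.31 (95% interval -1.08 to 0.47) for Mt1 and -0.20 (-1.04 to 0.64) for Mt2, and edgeR called neither. On plates, each of the 2 genes was lower in old than in young cells on 8 of 9 plates.

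A gene on the opposite strand, Gm45774 (antisense, chr8:94170748-94173412), shares 749 bases of span with Mt2. Its level followed that of Mt2 across cells more closely than any other gene (mean Spearman 0.82, 4 adult sums) and equalled 0.162 to 0.327 of the Mt2 level in the 6 sums. The strand setting of the counting is not given in the sources used here, so reads of Mt2 and Gm45774 cannot be told apart. Added together they gave 19.8 and 20.8 CPM in newborn sums of experiments 2 and 1, 484 and 339 CPM in young sums, and 446 and 289 CPM in old sums. The order of the ages in the combined values was that of Mt2 alone.

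Most adult cells held reads of both genes, and few newborn cells did. Each gene alone was read in at least 68.3% of thinned adult cells of any sum, so a high share with both follows from the single shares. After thinning, both Mt1 and Mt2 were detected in 7.69% and 9.49% of newborn cells (experiments 2 and 1), in 86.5% and 76.8% of young cells and in 86.8% and 64.3% of old cells. Cells without a read of either gene made up 76.9% and 72.8% of newborn cells, 0.962% and 2.82% of young cells, and 3.51% and 10.3% of old cells. Mt1 was 2.20 to 2.50 times Mt2 in CPM over the 6 sums, and 1.04 to 1.18 times Mt2 in CPM per kilobase of exon. The second ratio rests on annotated exon lengths of 1246 bases for Mt1, equal to its whole span, and 588 bases for Mt2. Either ratio varied little between ages, while the level of each gene was 16.4-fold to 20.3-fold higher in adult than in newborn sums. Across single cells of the 4 adult sums Mt1 and Mt2 had a mean Spearman correlation of 0.51 (0.40 to 0.71).

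After Gm45774 and each other, the genes most like Mt1 and Mt2 across adult cells were Zfp36, Nfkbia, Gm22133 and Tnfaip6. Zfp36, an early response gene which encodes an RNA-binding protein that speeds the decay of cytokine messages, had mean correlations of 0.33 with Mt1 and 0.36 with Mt2. Nfkbia, which encodes an inhibitor of NF-kappaB, had 0.32 and 0.36. Gm22133 (0.32 with Mt1) lies inside the ferritin light chain gene Ftl1 on the same strand, so its reads cannot be told apart from those of Ftl1, and Tnfaip6 had 0.35 with Mt2. The 16 genes of an early response and heat shock list, which includes Zfp36, summed to 11046 and 10924 CPM in newborn sums of experiments 2 and 1, 25023 and 18024 CPM in young sums, and 19768 and 18368 CPM in old sums. A list of 6 glucocorticoid response genes summed to 504.3 and 352 CPM, 501.7 and 413 CPM, and 745 and 379 CPM for the same ages and experiments. The part of either list in the metallothionein levels was not tested.

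**Figure D4:**
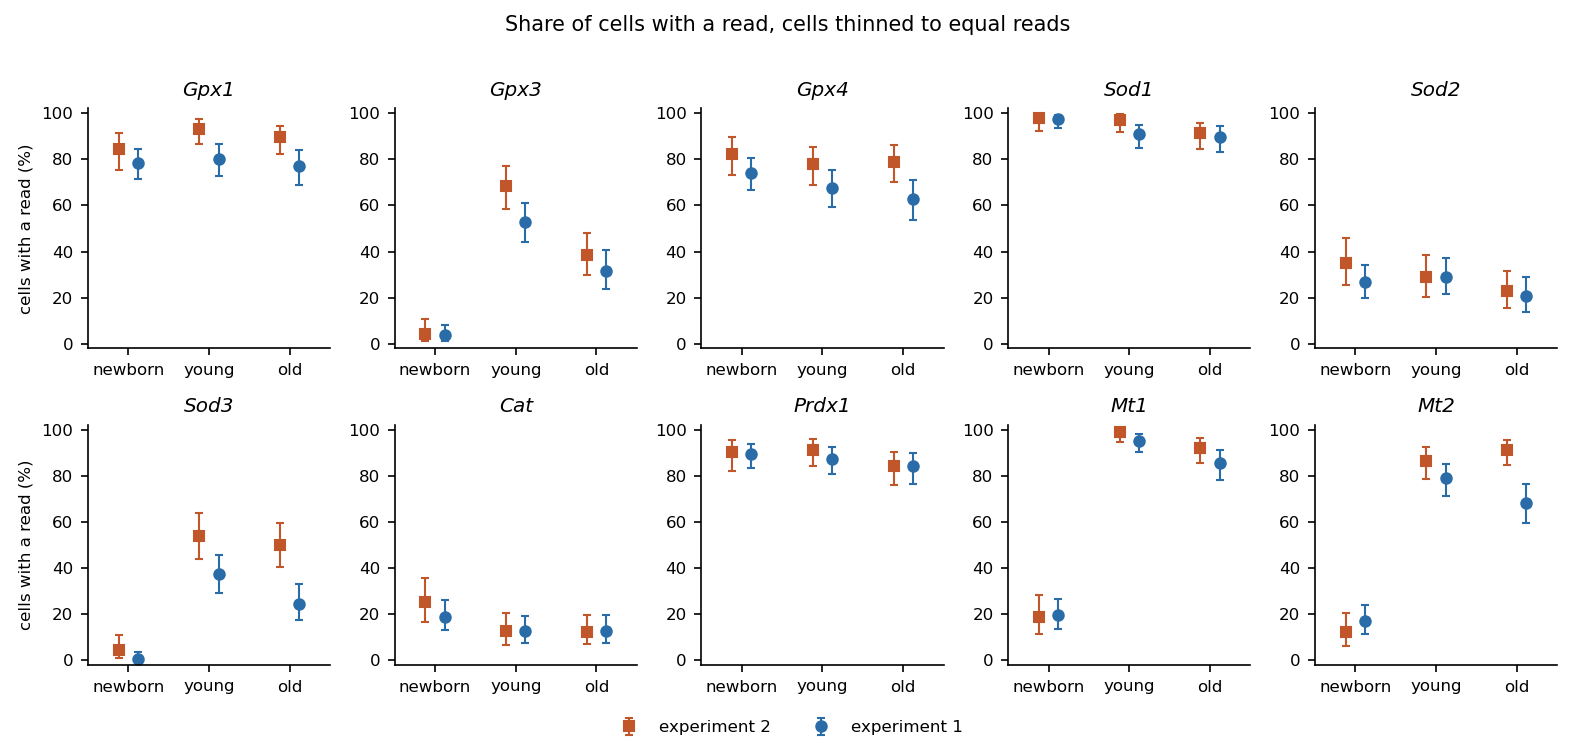
Share of cells with at least 1 read of each gene after thinning to equal reads, with exact 95% intervals that cover the counting of cells only. Squares are experiment 2 and circles experiment 1. Mt1 was read in at least 85.7% of adult and at most 19.6% of newborn cells, while Sod1 and Prdx1 were read in most cells at every age.

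Sod3 (ENSMUSG00000072941, chr5:52363791-52371418) encodes the extracellular superoxide dismutase, which is held on matrix proteoglycans. It had 12.5 and 0.484 CPM in newborn sums of experiments 2 and 1, 475 and 327 CPM in young sums, and 641 and 243 CPM in old sums. All adult sums lay above the newborn sums, but the 2 newborn sums differed 25.8-fold and rest on 5 and 2 cells with a read. Against newborn sums the log2 fold change was 5.95 ± 1.67 in young (SE, edgeR adjusted p = 0.25) and 6.09 ± 1.69 in old sums (adjusted p = 0.214), so neither passed the test. Thinned cells with a Sod3 read made up 4.40% and 0.633% of newborn cells, 53.8% and 37.3% of young cells, and 50% and 24.6% of old cells.

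Sod1 (ENSMUSG00000022982, chr16:90220754-90226329) encodes the copper-zinc enzyme of the cytosol. It had 324 and 754 CPM in newborn sums of experiments 2 and 1, 318 and 539 CPM in young sums, and 345 and 482 CPM in old sums. The values divided by experiment and overlapped between ages. Its log2 fold change was -0.33 in young against newborn (95% interval -1.62 to 0.96) and -0.05 in old against young sums (-1.34 to 1.24). It was read in 89.7% to 97.8% of thinned cells of each sum, and its lowest share was the highest among the 10 genes. Scaf4 overlaps Sod1 on the opposite strand, at no more than 14.7 CPM in any sum.

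Sod2 (ENSMUSG00000006818, chr17:13006846-13040063) encodes the manganese enzyme of mitochondria. It ranged from 87.7 to 125 CPM over the 6 sums with overlapping ages, and its log2 fold change was 0.13 in young against newborn (95% interval -0.57 to 0.83) and -0.21 in old against young sums (-0.91 to 0.49). It was read in 20.6% to 35.2% of thinned cells. Catalase (Cat, ENSMUSG00000027187, chr2:103453849-103485160), which breaks down hydrogen peroxide in peroxisomes, had 130 and 138 CPM in newborn sums of experiments 2 and 1, 69.1 and 103 CPM in young sums, and 79.4 and 92.5 CPM in old sums. Both newborn sums lay above all adult sums, but the log2 fold change of -0.64 in young and -0.64 in old against newborn sums did not pass the edgeR test (adjusted p = 0.456 and 0.402). Cat was read in 12.3% to 25.3% of thinned cells, and the tenth of cells with the most reads held 75.4% to 99.6% of them.

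Gpx1 (ENSMUSG00000063856, chr9:108338903-108340343), the glutathione peroxidase of the cytosol and mitochondria, averaged 374 ± 48.6 CPM in newborn sums, 654 ± 81.5 CPM in young sums and 712.3 ± 140 CPM in old sums (SD, n = 2 each). All adult sums lay above both newborn sums, at log2 0.81 ± 0.24 in young (SE, edgeR adjusted p = 0.258) and 0.93 ± 0.24 in old sums (adjusted p = 0.204). Neither passed the test. In CPM Gpx1 was 1.14-fold higher in the old than in the young sum of experiment 2 and 1.03-fold higher in experiment 1, yet higher on 2 of 9 plates only, and the highest old plate of experiment 2 reached 1213 CPM, against 781 CPM on the highest young plate of that experiment.

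Gpx4 (ENSMUSG00000075706, chr10:80047166-80056439) reduces lipid hydroperoxides in membranes and guards against ferroptosis. It was the steadiest of the 10 genes, at 151 to 205 CPM over the 6 sums, a range of 1.36-fold. Its log2 fold change was 0.03 in old against young sums (95% interval -0.50 to 0.57). Prdx1 (ENSMUSG00000028691, chr4:116685544-116700822) encodes a peroxidase of the cytosol that is recharged by thioredoxin. It averaged 823 ± 133 CPM in newborn sums, 924 ± 96.1 CPM in young sums and 1063 ± 65.1 CPM in old sums (SD, n = 2 each), and edgeR called it in no comparison. Averaged over cells on a log scale, each cell with equal weight, the differences of Gpx4 and Prdx1 between ages turned to the opposite sign (-0.31 for each on the log2 scale in young against newborn sums, where the median of all genes was -0.26).

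The order of levels was set per kilobase of exon. The length joins all annotated exons of a gene, from 588 bases for Mt2 to 10008 for Sod2, and may differ from the transcripts present, so the order depends on it. In CPM, newborn Sod2 (98.4 on average) lay above Mt1 (38.7) and Mt2 (16.4). In newborn sums Prdx1 (271 ± 43.7 CPM per kilobase, SD, n = 2) and Gpx1 (259 ± 33.7) led and did not differ beyond their spread, followed by Sod1 (136 ± 76.7) and Gpx4 (93.2 ± 7.98), which overlapped. Sod3 (1.73 ± 2.27), Gpx3 (5.63 ± 1.64) and Sod2 (9.83 ± 0.56) came last. In young sums Gpx3 led at 3295 ± 2171 CPM per kilobase, followed by Mt1 (630 ± 117), Mt2 (561.8 ± 137) and Gpx1 (454 ± 56.5), which overlapped in turn. In old sums Gpx3 led at 844 ± 128, followed by Mt1 (509 ± 155), Gpx1 (494 ± 97.3) and Mt2 (489.9 ± 149), which overlapped. Gpx3 was ninth of the 10 genes in newborn sums and first in the adult sums.

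Within plates, 5 of the 10 genes (Gpx1, Gpx3, Sod3, Mt1 and Mt2) were higher in young than in newborn cells on all 9 plates, and 3.82% of all genes tested had that order. The same 5 genes were higher in old than in newborn cells on all 9 plates, against 3.81% of all genes. Plates of 1 experiment may hold cells of the same animals, so these counts carry no test.

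Between the experiments, the test over the 3 ages called 0 of the 10 genes higher and 0 lower in experiment 2 than in experiment 1, as for all 14901 genes tested (0% and 0%, edgeR with age as a block). The median log2 fold change of the 10 genes was 0.07, against 0.01 over all genes. The 1 gene with an unadjusted p under 0.05 was Sod1, at a log2 fold change of -0.82 ± 0.20 (SE, unadjusted p = 0.0151, adjusted p = 0.998 by edgeR), and 3.96% of all genes tested had such a p. DESeq2 called 1 of the 10 genes, Sod1, where it called 3.7% of all genes with an adjusted p, and limma on cell means called 0 of the 10. Sod3 had the largest difference, 2.06 ± 1.02 on the log2 scale (95% interval -0.82 to 4.93).

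Within an age each experiment is 1 sum, so these differences have no test. Sod1 was 2.33-fold lower in experiment 2 than in experiment 1 in newborn, 1.70-fold lower in young and 1.40-fold lower in old cells. Its plates ran from 139 to 611 CPM in experiment 2 and from 636 to 904 CPM in experiment 1 for newborn cells. For young cells they ran from 254 to 445 CPM in experiment 2 and from 466 to 799 CPM in experiment 1. In neither age did the plates of the experiments overlap, while in old cells they did (293 to 419 CPM in experiment 2 and 353 to 693 CPM in experiment 1).

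Sod3 went the other way, at 2.64-fold higher in experiment 2 than in experiment 1 in old cells. Its old plates ran from 365 to 807 CPM in experiment 2 and from 130 to 289 CPM in experiment 1, with no overlap. Its newborn plates did not overlap either (5.52 to 22.0 CPM in experiment 2 and 0 to 3.12 CPM in experiment 1). Those newborn values lie near the floor and rest on 5 and 2 cells with a read in experiments 2 and 1. Gpx3 was 2.75-fold higher in experiment 2 in young cells, with plates from 7131 to 12588 CPM in experiment 2 and from 2109 to 4015 CPM in experiment 1. In old and newborn cells its plates overlapped. In all, plates of the experiments did not overlap for 2 of the 10 genes in newborn cells (Sod1 and Sod3), 2 in young cells (Gpx3 and Sod1) and 1 in old cells (Sod3). Over all genes tested the shares were 3.14%, 2.89% and 2.28%.

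**Figure D5:**
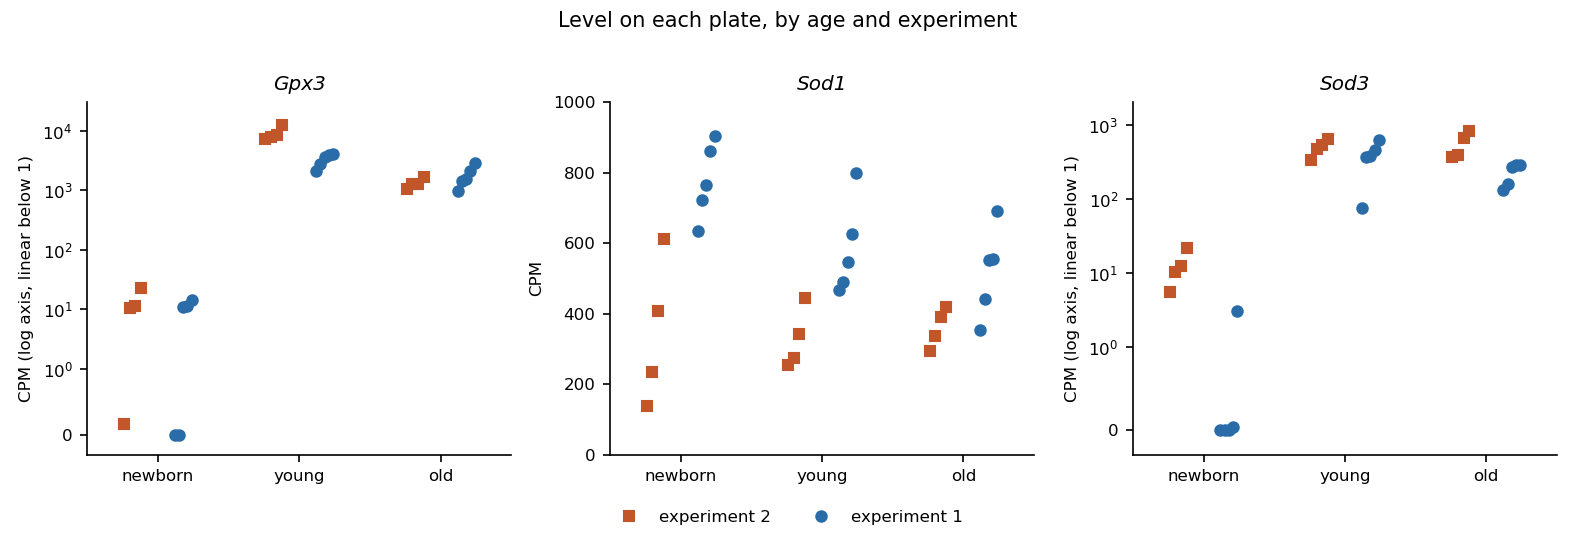
Level of Gpx3, Sod1 and Sod3 on each plate in CPM, for newborn, young and old cells, with experiment 2 (squares, 4 plates) left of experiment 1 (circles, 5 plates). The axes of Gpx3 and Sod3 are logarithmic above 1 CPM. Young Gpx3 plates of experiment 2 start at 7131 CPM, above the highest of experiment 1 at 4015 CPM, and old Gpx3 plates overlap.

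Shares of cells with a read were higher in experiment 2 than in experiment 1 for several genes. Gpx1 was read in 93.3% of thinned young cells in experiment 2 and 80.3% in experiment 1, and in 89.5% and 77.0% of old cells. Mt2 was read in 91.2% of thinned old cells in experiment 2 and 68.3% in experiment 1. Sod1 differed in level and little in share, with 97.1% and 90.8% in young cells. The part of the higher number of genes per cell in experiment 2 in these shares was not tested.

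Of 55 other genes for redox and metal handling in 9 lists, 49 were tested. In young against newborn sums 2 rose and 0 fell by edgeR, and 8 had an unadjusted p under 0.05, against 13.3% of all genes tested. Prdx6, a peroxiredoxin that also has phospholipase activity, averaged 828 ± 103 CPM in young and 218 ± 32.9 CPM in newborn sums (SD, n = 2 each, log2 fold change 1.92, edgeR adjusted p = 0.0492). Fth1, the ferritin heavy chain that stores iron, averaged 5969 ± 10.7 CPM in young and 1116 ± 90.2 CPM in newborn sums (log2 fold change 2.42, edgeR adjusted p = 0.0250). In old against newborn sums 1 rose (Fth1, log2 fold change 3.00, edgeR adjusted p = 0.0157) and 0 fell, and 9 had an unadjusted p under 0.05, against 15.2% of all genes tested. In old against young sums and between the experiments 0 of 49 passed in either direction by edgeR, with 1 and 4 genes at an unadjusted p under 0.05, against 4.86% and 3.96% of all genes tested. The median log2 fold change of the 49 genes was 0.05 in young against newborn, 0.04 in old against young and 0.06 in old against newborn sums. Of the 16 early response and heat shock genes 1 rose in each comparison with newborn, Fosb, a subunit of the AP-1 factor (log2 fold change 2.82 in young and 2.91 in old sums, edgeR adjusted p = 0.0372 and 0.0297), and of the 6 glucocorticoid response genes 0 passed. At an unadjusted p under 0.05 there were 9 of 16 early response genes in young against newborn sums (8 higher and 1 lower) and 7 of 16 in old against newborn sums (all higher), and 1 of 6 glucocorticoid response genes in each. Without either old sum edgeR called 0 of all genes in both comparisons with newborn, so the calls of Prdx6, Fth1 and Fosb were lost there.

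Within those lists, the other glutathione peroxidases that were tested were Gpx7 and Gpx8, both of the endoplasmic reticulum, and Gpx2 and Gpx5 had at most 0.0334 CPM in any sum. Gpx7 averaged 445 ± 127 CPM in newborn sums, 283 ± 129 CPM in young sums and 214 ± 47.4 CPM in old sums, and Gpx8 averaged 496 ± 91.3, 372 ± 87.8 and 338 ± 17.3 CPM (SD, n = 2 each), and neither passed the test. Gpx6, Mt3 and Mt4 were at 0 in all 6 sums. Mtf1, which encodes the factor that binds the metal response element, was at 7.99 to 12.5 CPM in all 6 sums.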

How the data were processed

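The deposited tables hold raw read counts per gene and cell, 1 table per plate, made by the authors; per the submitters' processing notes the genome build is GRCm38, and FastQC is named with no version. No aligner, counter or strand setting is named in those notes, nor how reads that match several gene copies were handled, so genes with processed copies or overlapping neighbours are uncertain to that extent. Of the count values above 0, 75.2% were even, so 1 read may be 1 mate of a pair. In all, 1044 columns were used and 5 held no value. Runs of the same plate (2 plates, 183 wells) were added. Cells were kept with at least 50000 reads, 1000 genes and at most 25% mitochondrial reads; kept cells held 246349 to 4331293 reads, and no doublet caller was run on these singly sorted cells. GENCODE M21 (GRCm38) gave symbols, positions and exon lengths.

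Reads were added per age and experiment and tested with edgeR 4.0.16 (run in R 4.3.3 with a robust fit, TMM factors, the filterByExpr filter and age as the only term, 3 residual degrees of freedom). Experiments were compared with age as a block (2 residual degrees of freedom). CPM divides by tested reads times the TMM factor. Scripts were tested on simulated counts. Shares used cells thinned to 100000 reads with exact (Clopper-Pearson) 95% intervals; intervals cover counting error only, since reads without molecular identifiers are not independent molecules. The experiment number pairs the sums as a batch given by the labels; deviations of sums of the same experiment from their age mean correlated at -0.00017 (young and newborn), 0.0125 (old and young) and 0.0107 (old and newborn). Alternatives were DESeq2 1.42.0, limma 3.58.1 on cell means of log2(CPM + 1), other filters and factors, thinned cells, the experiment as a block, and each sum left out. All 10 members are named; of each list up to 3 genes in each direction past the threshold; for likeness the 5 genes with the highest mean correlation among genes read in at least 20% of cells. The genes Gpx2, Gpx5, Gpx6, Gpx7, Gpx8, Mt3, Mt4, Mtf1 and Gm45774 were named after their values were seen. The members and lists were chosen with earlier results of these data known.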

Additional observations from a re-analysis of the deposited data

How the results depend on the processing

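Across settings, the calls of Gpx3, Mt1 and Mt2 in adult against newborn sums held under DESeq2 size factors, DESeq2, the other filters, all wells, thinned cells and limma on cell means, and were lost with the experiment as a replicate block. The block fit called 0 of the 10 genes in each age comparison, and 25, 0 and 51 of all genes in young against newborn, old against young and old against newborn sums. Among the 10 genes the block fit changed no other call, and neither did experiment as the only term. The block results of Prdx6, Fth1 and Fosb are not given here. DESeq2 called 5, 1 and 5 of the 10 genes in those comparisons (adding Gpx1 and Sod3 in adult against newborn sums) and 1 between experiments, with 2376, 1120, 2844 and 498 of all genes, against 130, 0, 156 and 0 by edgeR. The DESeq2 calls made up 7.13% of all genes with an adjusted p in old against young sums and 3.7% between experiments. Settings differed in the number of genes tested, so raw counts of calls cannot be compared directly between them. The counts of the 10 genes under each setting are a description only. Genes read in at least 10% of cells gave 492, 9 and 550 calls, thinned cells 254 and 281 in adult against newborn sums, no low-count filter 2 in old against young sums, and limma 1348, 8, 1822 and 1, with Sod3 added to the 3 genes in adult against newborn sums. Leaving out 1 sum gave 0 of the 10 genes in young against newborn sums (0 to 42 of all genes), 0 to 1 in old against newborn sums (0 to 47), and 0 in old against young sums and between experiments (0 of all genes). In the fits that leave 1 sum in an age, that sum was assumed to vary like the others.

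Signs turned only for log2 fold changes that no test called. By limma, which shifts the median of all genes to -0.26, -0.09, -0.38 and 0.17 in the order young against newborn, old against young, old against newborn, experiments, they were -0.31, -0.24 and -0.31 for Gpx4, Sod2 and Prdx1 in young against newborn sums, -0.18, -0.0643, -0.64, 0.051 and -0.20 for Gpx1, Gpx4, Sod3, Cat and Prdx1 in old against young sums, -0.38 and -0.51 for Gpx4 and Prdx1 in old against newborn sums, and 0.19, 0.15 and 0.0539 for Sod2, Cat and Prdx1 between experiments. The calls by limma split 453 higher to 895 lower in young against newborn sums, against 120 to 10 by edgeR. In old against young sums Cat was at 0.0012 with no filter, 0.0122 among genes read in at least 10% of cells, 0.30 in thinned cells and 0.0173 with the block, and Sod3 at -0.12 in thinned cells and -0.15 with the block. In thinned cells Sod2 was at 0.0637 in old against newborn sums and Gpx4 at -0.0108 between experiments, where all wells gave -0.0245.

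With 1 sum left out, values spanned 0 in young against newborn sums for Sod1 (-0.81 to 0.40) and Sod2 (-0.12 to 0.34). In old against young sums they did so for Gpx1 (-0.0948 to 0.30), Gpx4 (-0.0333 to 0.10), Sod1 (-0.38 to 0.38), Sod2 (-0.42 to 0.0371), Sod3 (-0.73 to 0.66), Cat (-0.26 to 0.31) and Mt2 (-0.55 to 0.0745). In old against newborn sums Sod1 (-0.87 to 0.35) and Sod2 (-0.17 to 0.0094) did so, and between experiments Gpx1 (-0.0075 to 0.33), Gpx4 (-0.0612 to 0.0947) and Sod2 (-0.17 to 0.14). The cause of these changes was not tested. Of 60 shares of cells with a read, 59 without thinning lay within the interval of the thinned share. A minimum of 10 reads, chosen after seeing the data, left 45 of 60 within it. With n = 2 sums per age and 3 residual degrees of freedom, a fold change below the spread between experiments was not detectable.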
